A study of Mus musculus with 15 samples.

Results

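The VEGF and angiopoietin members examined here are 10 of the 46679 genes in the deposited tables. They were chosen by name, and each symbol matched 1 Ensembl identifier. The ligands were Vegfa, Vegfb, Vegfc, Pgf and Angpt2, and the receptors were Flt1, Kdr, Flt4, Nrp1 and Tek.

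Whole-transcriptome RNA was sequenced from end-stage intracranial tumors of 4 mouse glioblastoma lines and from naïve brain, with 3 samples per group and 15 in all. All mice were C57BL/6. Tumors grew in the right hemisphere of mice that were 6 to 8 weeks old at implantation, and were taken at the humane end-point after perfusion with 30 ml of PBS. CT2A (p53 wild type) and GL261 (K-ras mutant, p53 mutant) come from tumors induced with methylcholanthrene. The 005 line has activated H-ras and AKT on a p53+/- background, and Mut3 carries inactivated NF1 and p53, among other changes. For CT2A, GL261 and 005, 100000 cells carrying GFP and firefly luciferase were implanted, and for Mut3, 500000 cells. The sources do not state the age of the naïve mice, which carried no tumor. Each tumor group is 1 line, so its 3 tumors repeat that line and are not independent samples of a class of tumors. The samples of a group came from separate mice, so p-values measure the spread between mice that carried the same line.

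VEGF ligands are secreted dimers that bind receptor tyrosine kinases on endothelial cells. VEGF-A acts mainly through VEGFR2 (Kdr), which drives endothelial growth and permeability, and also binds VEGFR1 (Flt1), which limits the ligand left for VEGFR2. In the angiopoietin arm, the receptor Tie2 (Tek) is kept active by Angpt1 from mural cells, while Angpt2, released by activated endothelium, competes with Angpt1 and loosens the vessel wall. In glioblastoma, Vegfa is a textbook target of hypoxia signaling and Angpt2 a marker of remodeled vessels.

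With TMM normalization, Angpt2 was called higher in all 4 tumors against naïve brain, Vegfa in CT2A and Mut3, Pgf in CT2A, and Kdr in Mut3. When counts were scaled as the deposited TPM instead, Angpt2 was not called in GL261 or 005, Vegfa not in CT2A and Kdr not in Mut3. The Kdr call was also lost in 5 of 6 fits that left out a library of the comparison. No member was called lower in the fit of all 15 samples with TMM normalization. The test was edgeR's quasi-likelihood test over 17481 genes, and a gene was called at an adjusted p (Benjamini-Hochberg) under 0.05 together with a log2 fold change of 1 or more in size. Levels are counts per 1000000 (CPM) after TMM normalization unless stated. Flt4 was too low for the test, which left 9 members.

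The sequence just upstream of the start is shown for Vegfa and Kdr, a ligand and its receptor that were both called higher in Mut3 with TMM. RefSeq (GRCm38.p6) gave a promoter entry for 9 of the 10 members, all but Angpt2. The 250 bases before the RefSeq start are printed 5′ to 3′. Capitals mark the GC box GGGCGG and GCGTG, a form of the hypoxia response element core, on either strand. Other forms of that core, and bases farther upstream, were not searched.
Vegfa, chr17:46032378-46032627, minus strand: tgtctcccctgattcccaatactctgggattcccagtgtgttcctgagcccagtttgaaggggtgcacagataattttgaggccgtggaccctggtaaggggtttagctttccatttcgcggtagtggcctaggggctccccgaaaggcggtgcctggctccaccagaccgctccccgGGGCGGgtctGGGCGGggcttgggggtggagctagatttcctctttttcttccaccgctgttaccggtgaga
Kdr, chr5:75978456-75978705, minus strand: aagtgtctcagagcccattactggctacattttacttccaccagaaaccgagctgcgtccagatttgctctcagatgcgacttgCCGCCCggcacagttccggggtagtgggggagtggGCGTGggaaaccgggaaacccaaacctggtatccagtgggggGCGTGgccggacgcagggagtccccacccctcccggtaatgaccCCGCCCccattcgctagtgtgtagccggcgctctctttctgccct
The Vegfa window held 2 GC boxes and 0 hypoxia cores of the form searched, and the Kdr window 2 of each. Of the 9 members with an entry, 8 held a GC box and 5 a hypoxia core. Among all 32851 promoter windows of this length, 32.7% held a GC box and 28.2% a hypoxia core. A match describes letters and not a bound site, and a window without a match does not show that the gene lacks a hypoxia response element.

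Total counts ran from 3.105 M (M, 1000000 counts) to 5.16 M in naïve brain and from 5.38 M to 13.13 M in tumors. A floor of 3 counts stood at 0.214 to 0.811 CPM, for counting error only. Libraries differed in brain tissue. The summed level of 10 neuron markers was 5058 to 6873 CPM in naïve brain and 52.02 to 154 CPM in Mut3, with 231 to 1140.0 CPM in CT2A, 835 to 2035 CPM in GL261 and 206 to 4171 CPM in 005. Replicate 3 of 005 gave the 4171 CPM, and its mitochondrial share of 17.8% lay within the naïve range of 14.97% to 23.97%. Endothelial cells were represented in every group, with all 16 endothelial markers detected in each. Their summed level was 305 to 408 CPM in naïve brain, 458 to 866 CPM in GL261, 321 to 1248 CPM in 005, 184 to 214 CPM in CT2A and 164 to 201 CPM in Mut3. Of these sums, Ly6c1, which monocytes also express, made up 576, 233 and 234 CPM in GL261. It made up 149, 934 and 80.6 CPM in 005, against 56.3, 45.6 and 76.3 CPM in naïve brain. Abcb1a made up 157 CPM of the sum in naïve replicate 1. The higher sums in GL261 and 005 therefore do not show more endothelium. In bulk tissue, fewer cells of a type and less RNA per cell cannot be told apart.

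The scaling between naïve brain and tumor mattered for every comparison with naïve brain. TMM set the median log2 fold change of all tested genes near 0, from -0.08 in GL261 to 0.11 in Mut3. When the counts were instead scaled as the deposited TPM, the median gene stood at -1.04 for CT2A, -0.89 for GL261, -0.56 for 005 and -0.72 for Mut3. Changes below are therefore relative to the median gene under TMM. The TPM scaling, chosen after the data were seen, is given beside them.

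**Figure D1:**
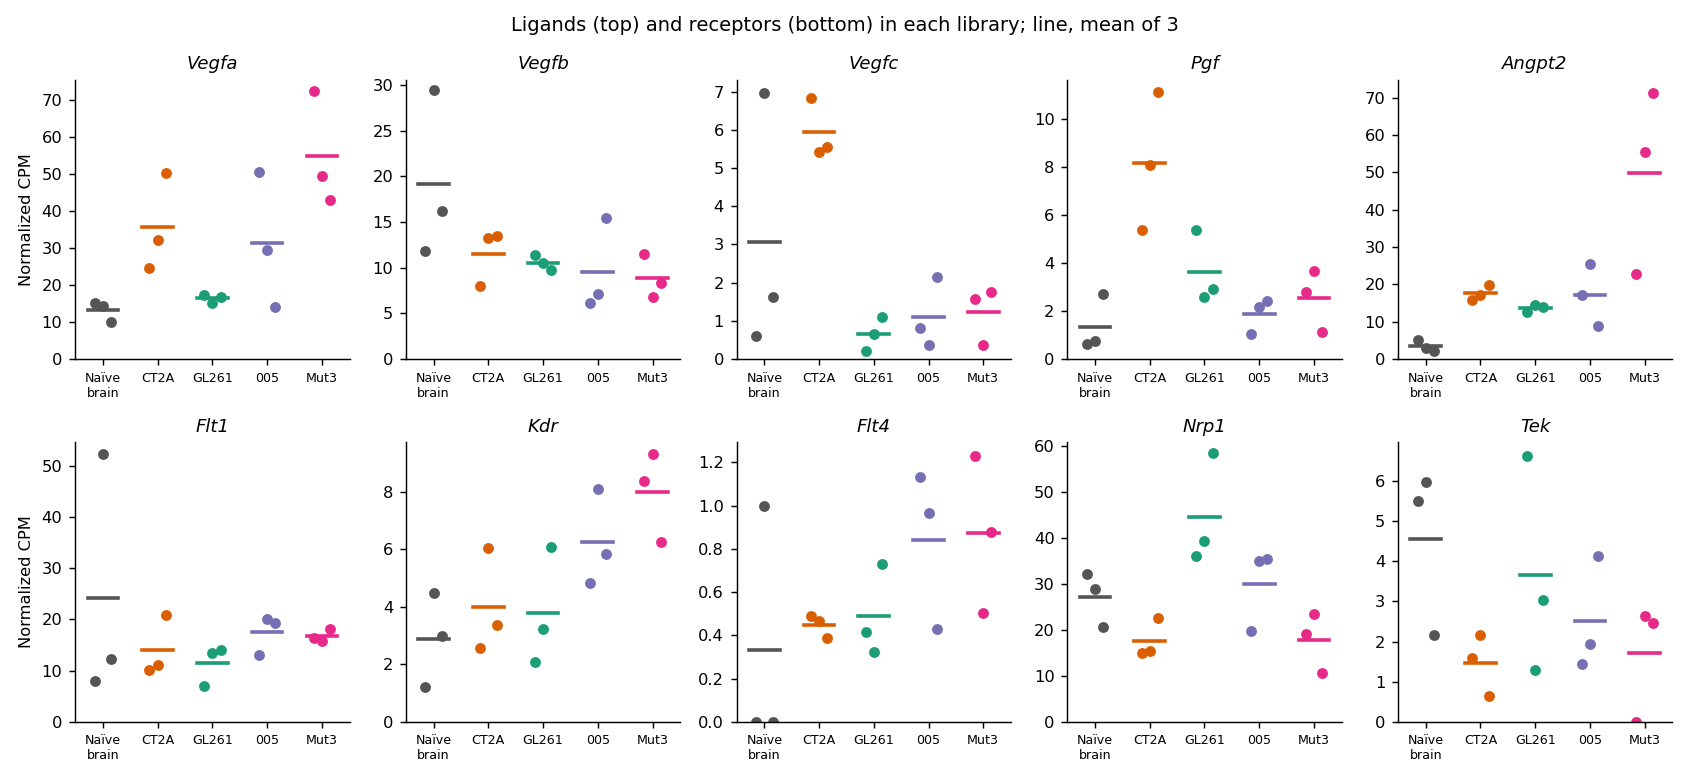
Normalized CPM (y axis, from 0, own scale per panel) of the 5 ligands and 5 receptors in each library, by group (x axis), with 3 points and a mean line per group. Angpt2 in every tumor library, from 8.76 CPM in 005 replicate 3 to 71.3 CPM in Mut3 replicate 3, lay above the naïve libraries, which reached 5.10 CPM.

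Against naïve brain, 3 of the 9 tested members were called higher in CT2A, beside 19.0% of all tested genes higher and 20.2% lower. In GL261 1 member was called higher, where 14.6% of genes were higher and 7.77% lower. In 005 it was again 1 member, with 11.6% of genes higher and 1.05% lower. In Mut3 3 members were called higher, where 17.9% of genes were higher and 19.8% lower. The count of members called lower was 0 in each of the 4 comparisons with edgeR in this fit. With a filter of at least 10 counts in every sample, which tested 4 members, edgeR called 1 lower, in Mut3. There 3628 of 9435 genes were called in either direction. At an unadjusted p under 0.05, edgeR gave 0 members lower in CT2A and 1 in each of GL261, 005 and Mut3, and DESeq2 called 1 lower, in Mut3. DESeq2 called 7121 of 17481 genes in Mut3 in either direction. In limma on log2(TPM + 0.1), with 5 members tested, 2 were called lower in CT2A and in Mut3 and 1 in GL261 and in 005, and with a pseudocount of 1 it was 1 in each.

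Under the TPM scaling, 2 members were called higher and 4 lower in CT2A, where 8.17% of all genes were higher and 39.3% lower (1429 and 6873 genes, against 3319 and 3539 under TMM). In GL261 it was 0 higher and 3 lower, with 8.07% and 27.4% of genes (1410 and 4788, against 2555 and 1358). In 005 it was 0 and 0, with 4.73% and 0.875% of genes. At an unadjusted p under 0.05 this edgeR comparison in 005 gave 1 member higher and 1 lower, and DESeq2 with its own size factors called 2 higher. DESeq2 called 3375 of 17481 genes in 005 in either direction. In Mut3 the TPM scaling gave 2 members higher and 2 lower, with 7.44% and 32.0% of genes (1300 and 5596, against 3135 and 3466).

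**Figure D2:**
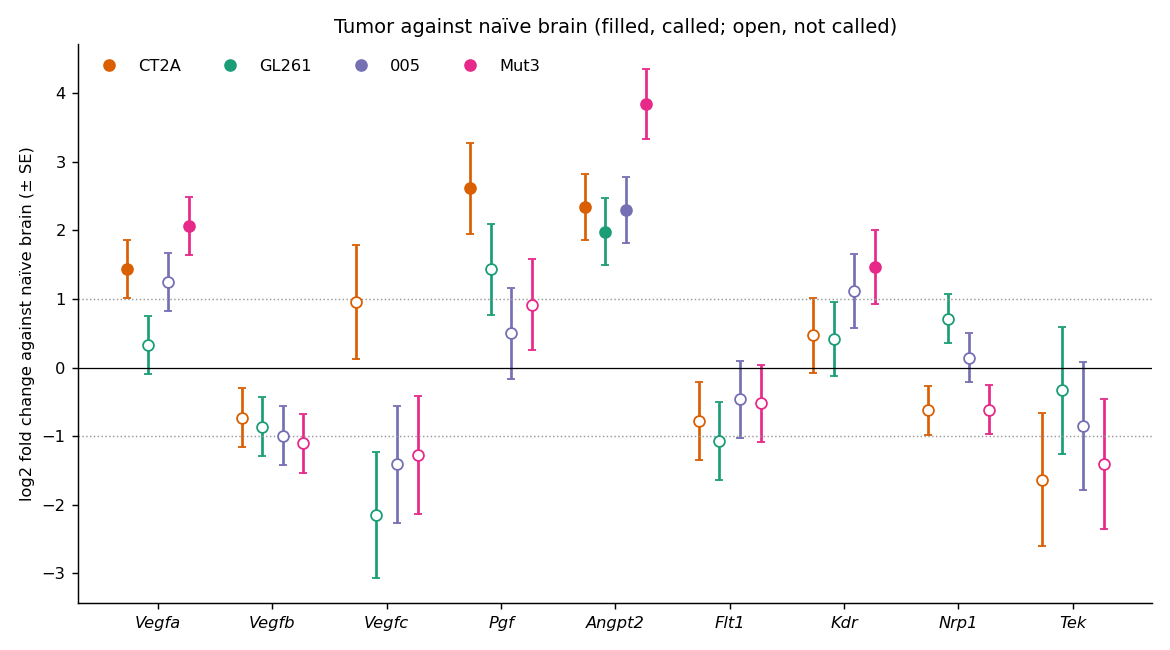
log2 fold change against naïve brain (y axis, bars ± SE) of the 9 tested members (x axis) in the 4 tumors, filled where called, with dotted lines at 1 and -1. Angpt2 is filled in all 4 tumors and highest in Mut3 at 3.84.

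Angpt2 (chr8:18690263-18741562, minus strand, GRCm38) was measured at 5.10, 2.99 and 2.16 CPM in the 3 naïve brains. In CT2A the libraries gave 15.9, 17.2 and 19.8 CPM, and in GL261 12.6, 14.5 and 13.95 CPM. In 005 it was 17.1, 25.4 and 8.76 CPM, and in Mut3 22.7, 55.4 and 71.3 CPM. No tumor library overlapped the naïve range. Within Mut3 the libraries spread widely, with replicate 1 inside the range of 005. Angpt2 rose in Mut3 by 3.84 ± 0.51 on the log2 scale (SE, adjusted p = 2.15e-04, edgeR), in CT2A by 2.34 ± 0.48 (adjusted p = 0.00281), in 005 by 2.29 ± 0.48 (adjusted p = 0.00695) and in GL261 by 1.98 ± 0.48 (adjusted p = 0.0109). These 4 calls were kept when any single naïve or tumor library of the comparison was left out, with log2 fold changes of 3.47 to 4.26 in Mut3, 2.12 to 2.77 in CT2A, 1.90 to 2.72 in 005 and 1.75 to 2.41 in GL261. Under the TPM scaling Angpt2 was still called in CT2A at 1.35 ± 0.48 (adjusted p = 0.0295) and in Mut3 at 3.02 ± 0.49 (adjusted p = 0.00103). It was not called in GL261 at 1.19 ± 0.48 (adjusted p = 0.0609) or in 005 at 1.61 ± 0.48 (adjusted p = 0.0613). Over the alternative settings and left-out libraries, adjusted p ran from 4.32e-05 to 0.127 in CT2A, from 0.00158 to 0.202 in GL261, from 2.20e-04 to 0.142 in 005 and from 6.20e-12 to 0.00161 in Mut3.

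Angpt2 lies inside Mcph1, a gene on the opposite strand, and the sources do not say whether counting used strand. The exons of the pair share 0 bases. Mcph1 did not pass the test in any tumor, with log2 fold changes of -0.07 for CT2A, 0.34 for GL261, -0.37 for 005 and -0.26 for Mut3.

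Vegfa (chr17:46016993-46032369, minus strand), the main VEGF ligand, stood at 15.1, 14.2 and 10.01 CPM in naïve brain. It reached 24.5, 32.1 and 50.1 CPM in CT2A and 72.3, 49.3 and 43.01 CPM in Mut3, and all 6 of these libraries lay above the naïve range. In GL261 it was 17.4, 15.2 and 16.9 CPM, only just above that range. In 005 it was 50.4, 29.3 and 13.96 CPM, with replicate 3 inside the naïve range and the other two above it. On the deposited TPM, Vegfa was 1.59, 2.13 and 0.935 in naïve brain, and the Mut3 libraries (4.64, 3.24 and 2.73) lay above that. CT2A (1.63, 1.72 and 2.69), GL261 (0.933, 1.02 and 1.26) and 005 (3.05, 1.95 and 1.46) overlapped naïve brain on that scale. Vegfa rose by 1.44 ± 0.42 (adjusted p = 0.0150) on the log2 scale in CT2A and by 2.06 ± 0.43 (adjusted p = 0.00213) in Mut3. In GL261 the value was 0.33 ± 0.42 (adjusted p = 0.577) and in 005 1.25 ± 0.42 (adjusted p = 0.0644), neither called.

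The Vegfa call in Mut3 was kept in all 6 fits that left out a library of the comparison, while 2 libraries decided the call in CT2A. Without naïve replicate 3 the CT2A value was 1.29 (adjusted p = 0.0543), and without CT2A replicate 3 it was 1.12 (adjusted p = 0.0754). Without 005 replicate 3, Vegfa was called in 005 at 1.53 (adjusted p = 0.00485), while the genes called in that comparison went from 2217 to 6535. DESeq2 with every library also called Vegfa in 005, at 1.26 (adjusted p = 0.0322). Replicate 3 of 005 carried the neuron marker level of 4171 CPM, and the part of its brain tissue in the result was not tested. Vegfa scaled as the TPM was called in Mut3 at 1.20 ± 0.39 (adjusted p = 0.0262). It was 0.38 ± 0.39 (adjusted p = 0.427) in CT2A and 0.48 ± 0.39 (adjusted p = 0.374) in 005, neither called. In GL261 it changed sign to -0.52 ± 0.39 (adjusted p = 0.291). Over the alternative settings and left-out libraries, adjusted p for Vegfa ran from 0.00375 to 0.438 in CT2A, from 0.00485 to 0.381 in 005, from 0.291 to 0.814 in GL261 and from 3.37e-05 to 0.0262 in Mut3.

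Pgf (chr12:85166635-85177790, minus strand), placental growth factor, a ligand of VEGFR1, was near the floor in naïve brain, at 0.612, 0.747 and 2.70 CPM. CT2A gave 5.37, 8.07 and 11.1 CPM, all above naïve brain, and Pgf rose there by 2.61 ± 0.67 (adjusted p = 0.00768) on the log2 scale. GL261 gave 5.39, 2.59 and 2.91 CPM, 005 gave 1.03, 2.17 and 2.42 CPM, and Mut3 gave 2.80, 3.65 and 1.14 CPM. These 3 tumors overlapped naïve brain. Their values were 1.43 ± 0.66 (adjusted p = 0.121) in GL261, 0.50 ± 0.66 (adjusted p = 0.620) in 005 and 0.92 ± 0.66 (adjusted p = 0.284) in Mut3, not called. Without naïve replicate 3, which held the 2.70 CPM, Pgf was called in GL261 at 2.39 (adjusted p = 0.0418), and over all alternatives its adjusted p there ran from 0.0418 to 0.426. The CT2A call held in each of 6 fits without a library of the comparison and under the TPM scaling, at 1.69 ± 0.67 (adjusted p = 0.0485).

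Vegfb (chr19:6982473-6987651, minus strand), a VEGFR1 ligand expressed constitutively in many tissues, was 11.8, 29.4 and 16.2 CPM in naïve brain. It was 7.94, 13.2 and 13.4 CPM in CT2A, 11.4, 10.5 and 9.70 CPM in GL261, 6.08, 7.12 and 15.5 CPM in 005 and 11.5, 6.79 and 8.36 CPM in Mut3. GL261 and Mut3 lay wholly below naïve brain, and CT2A and 005 overlapped it in CPM. On the deposited TPM, CT2A (3.94, 5.29 and 5.36) also lay below all naïve libraries, the lowest of which was 9.37. None of the 4 log2 fold changes was called, at -0.73 ± 0.43 (adjusted p = 0.181) for CT2A, -0.86 ± 0.43 (adjusted p = 0.148) for GL261, -0.996 ± 0.43 (adjusted p = 0.133) for 005 and -1.10 ± 0.43 (adjusted p = 0.0541) for Mut3. Vegfb was called in Mut3 by DESeq2 at -1.09 (adjusted p = 0.0353) and with the filter of at least 10 counts in every sample at -1.16 (adjusted p = 0.0364), and limma on the TPM called it lower in all 4 tumors. With counts scaled as the TPM, Vegfb fell in CT2A to a log2 fold change of -1.86 ± 0.58 (adjusted p = 0.0172), in GL261 to -1.79 ± 0.58 (adjusted p = 0.0305) and in Mut3 to -2.05 ± 0.58 (adjusted p = 0.0129), and the 005 value was -1.53 ± 0.57 (adjusted p = 0.109). The calls also changed with single libraries left out. Without 005 replicate 3 Vegfb was called in 005 at -1.61 (adjusted p = 0.0102), and without naïve replicate 1 it was called in Mut3 at -1.35 (adjusted p = 0.0376). Over the alternatives, adjusted p for Vegfb ran from 0.0102 to 0.456 in 005 and from 0.0127 to 0.378 in Mut3.

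Vegfc (chr8:54077606-54187096, plus strand), the ligand of VEGFR3 on lymphatic and sprouting endothelium, spread more among naïve brains than within any tumor, at 0.612, 6.97 and 1.62 CPM. CT2A held 6.84, 5.43 and 5.55 CPM, GL261 0.207, 0.646 and 1.09 CPM, 005 0.824, 0.362 and 2.14 CPM and Mut3 1.57, 0.377 and 1.76 CPM. CT2A lay above every library of the other tumors and overlapped naïve brain. In CT2A the log2 fold change was 0.96 ± 0.83 (adjusted p = 0.368), and it turned to -0.22 ± 0.98 (adjusted p = 0.864) under the TPM scaling. Without naïve replicate 2 Vegfc was called in CT2A at 2.63 (adjusted p = 0.0425), and over the alternatives its adjusted p ran from 0.0425 to 0.864. The other values, none called, were -2.14 ± 0.92 (adjusted p = 0.0969) for GL261, -1.41 ± 0.86 (adjusted p = 0.262) for 005 and -1.28 ± 0.86 (adjusted p = 0.249) for Mut3. In GL261 it was called under the TPM scaling, at -3.10 ± 1.10 (adjusted p = 0.0407).

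Among the receptors, only Kdr in Mut3 was called against naïve brain with TMM normalization. Kdr (chr5:75932827-75978458, minus strand) was 1.22, 4.48 and 2.97 CPM in naïve brain. It was 2.56, 6.05 and 3.36 CPM in CT2A, 2.07, 3.23 and 6.07 CPM in GL261, 4.84, 8.09 and 5.84 CPM in 005 and 8.39, 9.31 and 6.24 CPM in Mut3. The 005 and Mut3 libraries lay above all naïve libraries in CPM, and those of CT2A and GL261 overlapped them. On the deposited TPM, naïve replicate 2 (0.395) lay above every library of 005 (0.176, 0.318 and 0.360) and Mut3 (0.317, 0.366 and 0.237). Kdr rose in Mut3 by 1.47 ± 0.54 (adjusted p = 0.0417) on the log2 scale. In 005 the value was 1.12 ± 0.54 (adjusted p = 0.168), for CT2A 0.47 ± 0.54 (adjusted p = 0.506) and for GL261 0.42 ± 0.54 (adjusted p = 0.587). The Mut3 call rested on nearly every library. It was lost without naïve replicate 1 (1.09, adjusted p = 0.150), naïve replicate 3 (1.50, adjusted p = 0.0850), Mut3 replicate 1 (1.44, adjusted p = 0.0825), Mut3 replicate 2 (1.35, adjusted p = 0.1002) and Mut3 replicate 3 (1.60, adjusted p = 0.0556). Without naïve replicate 2 it was called at 2.11 (adjusted p = 0.0198). Scaled as the TPM, Kdr in Mut3 was 0.56 ± 0.63 (adjusted p = 0.498), and the sign turned in CT2A (-0.63, adjusted p = 0.421) and GL261 (-0.41, adjusted p = 0.618). Adjusted p for Kdr in Mut3 ran from 0.0188 to 0.498 over the alternatives.

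Nrp1 (chr8:128358604-128503363, plus strand), a coreceptor for VEGF that neurons and myeloid cells also carry, was 32.03, 28.9 and 20.6 CPM in naïve brain and did not pass the test in any tumor against it. It was 15.02, 15.4 and 22.5 CPM in CT2A and 19.1, 23.5 and 10.6 CPM in Mut3, against 36.1, 39.3 and 58.4 CPM in GL261 and 19.7, 34.9 and 35.4 CPM in 005. The GL261 libraries lay above every CT2A, Mut3 and naïve library in CPM. On the deposited TPM they overlapped naïve brain, at 0.802, 1.09 and 1.81 against 1.40, 1.78 and 0.785. Against naïve brain the log2 fold change was 0.71 ± 0.36 (adjusted p = 0.148) in GL261, 0.14 ± 0.36 (adjusted p = 0.806) in 005, -0.62 ± 0.36 (adjusted p = 0.174) in CT2A and -0.62 ± 0.36 (adjusted p = 0.186) in Mut3. With counts scaled as the TPM, Nrp1 was called lower in CT2A at -1.66 ± 0.48 (adjusted p = 0.0123) and in Mut3 at -1.48 ± 0.48 (adjusted p = 0.0247), and the values turned to -0.10 ± 0.47 (adjusted p = 0.877) for GL261 and -0.41 ± 0.47 (adjusted p = 0.529) for 005. Over the alternatives, adjusted p for Nrp1 ran from 0.0123 to 0.483 in CT2A and from 0.0247 to 0.458 in Mut3.

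Flt1 (chr5:147561604-147726011, minus strand) turned on 1 naïve library. Naïve brain gave 7.96, 52.3 and 12.2 CPM, and replicate 2, the library with the lowest total count, was above every other library of the series. CT2A gave 10.01, 11.2 and 20.9 CPM, GL261 7.05, 13.4 and 13.95 CPM, 005 12.98, 20.2 and 19.3 CPM and Mut3 16.4, 15.7 and 18.1 CPM, all overlapping the naïve range. None of the log2 fold changes was called, at -0.78 ± 0.56 (adjusted p = 0.277) for CT2A, -1.07 ± 0.57 (adjusted p = 0.171) for GL261, -0.46 ± 0.56 (adjusted p = 0.583) for 005 and -0.52 ± 0.56 (adjusted p = 0.475) for Mut3. Without naïve replicate 2 they turned to 0.69 (adjusted p = 0.223), 0.34 (adjusted p = 0.590), 0.89 (adjusted p = 0.184) and 0.92 (adjusted p = 0.111) in the same order, none called. Scaled as the TPM, Flt1 was called lower in CT2A at -2.02 ± 0.72 (adjusted p = 0.0307) and in GL261 at -2.06 ± 0.72 (adjusted p = 0.0391), and its adjusted p over the alternatives ran from 0.0307 to 0.546 in CT2A and from 0.0391 to 0.590 in GL261.

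Tek and Flt4 were low throughout. Tek (chr4:94739289-94874976, plus strand) was 5.51, 5.98 and 2.16 CPM in naïve brain. It was 1.59, 2.17 and 0.646 CPM in CT2A, 6.63, 1.29 and 3.03 CPM in GL261, 1.44, 1.93 and 4.13 CPM in 005 and 0, 2.64 and 2.46 CPM in Mut3. All 4 tumors overlapped naïve brain, and the Mut3 library at 0 allows a level up to its floor of 3 counts. Tek was not called, at -1.63 ± 0.97 (adjusted p = 0.185) for CT2A, -0.33 ± 0.93 (adjusted p = 0.812) for GL261, -0.85 ± 0.93 (adjusted p = 0.540) for 005 and -1.41 ± 0.95 (adjusted p = 0.249) for Mut3. Scaled as the TPM, Tek was called lower in CT2A, at -2.69 ± 1.07 (adjusted p = 0.0497), against a range of adjusted p from 0.0497 to 0.412 over the alternatives. Flt4 (chr11:49609263-49652739, plus strand), the VEGF-C receptor, had 0 counts in 2 naïve libraries and at most 10.9 counts in any library, and a difference was not detectable at this depth. Of 3 lymphatic markers tested, 1 was called higher and 1 lower in CT2A and none in the other tumors. Pdpn, podoplanin, which other cells also express, rose in CT2A by 1.48 ± 0.40 (adjusted p = 0.0108), and was named after its values were seen. Under the TPM scaling that call was lost and Pdpn was called lower in Mut3, at -1.21 (adjusted p = 0.0391). Prox1, the master regulator of lymphatic identity that some neurons also express, fell in CT2A with a log2 fold change of -2.35 ± 0.62 (adjusted p = 0.00878), and Lyve1, a hyaluronan receptor, did not pass the test in any tumor.

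**Figure D3:**
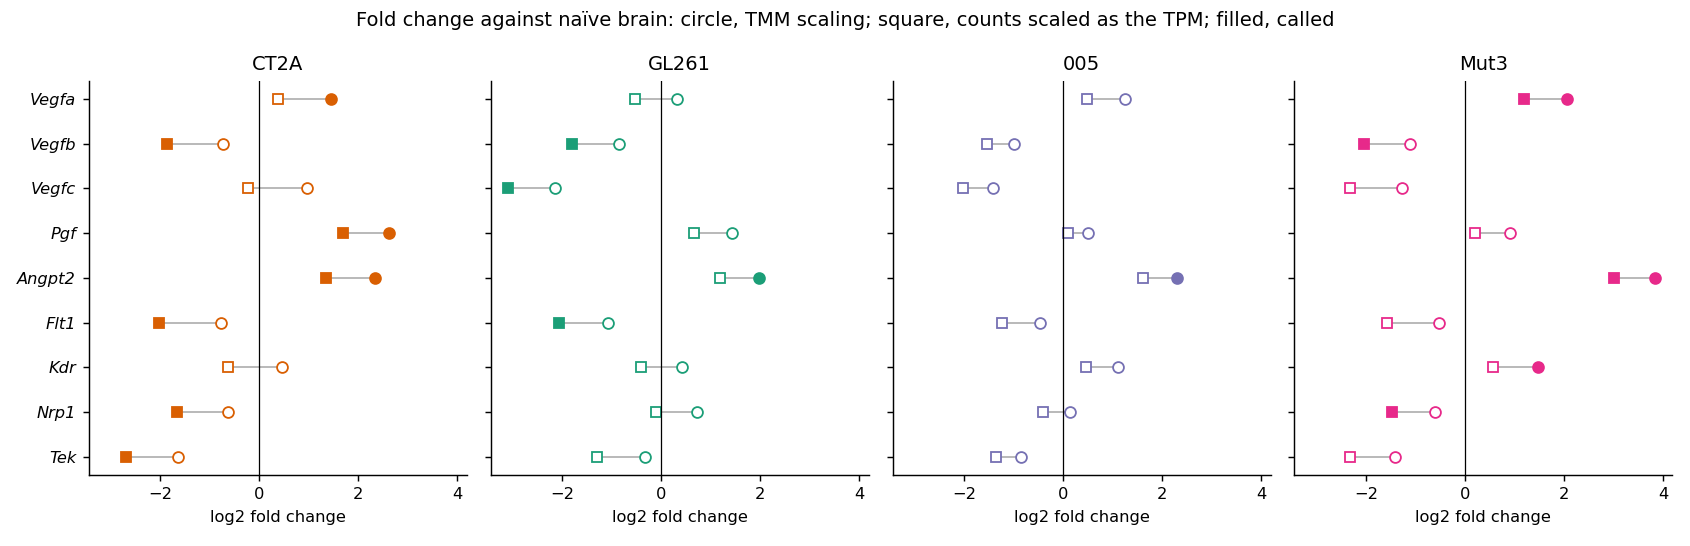
log2 fold change of the 9 tested members against naïve brain (x axis), with circles for TMM and squares for counts scaled as the TPM, filled where called. Every square lies to the left of its circle, and Angpt2 in Mut3 moves from 3.84 to 3.02.

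Levels of different genes can be compared per length only, so the deposited TPM was used for the order of the members. Vegfb had the highest mean TPM of the 10 members in every group, at 17.8 ± 13.05 (SD, n = 3) in naïve brain, 6.11 ± 5.13 in 005, 5.11 ± 0.46 in GL261, 4.86 ± 0.80 in CT2A and 4.26 ± 1.13 in Mut3. In naïve brain Flt1 (1.73 ± 2.10), Vegfa (1.55 ± 0.60) and Nrp1 (1.32 ± 0.50) followed, without separation beyond their spread, and Angpt2 was the eighth at 0.37 ± 0.17. In Mut3, Vegfa (3.54 ± 0.99) and Angpt2 (2.98 ± 1.47) stood next to Vegfb and did not differ from it beyond their spread, with Flt1 after them at 0.57 ± 0.03. Vegfa and Angpt2 also came directly after Vegfb in 005, at 2.15 ± 0.82 and 1.12 ± 0.39. In CT2A Vegfa (2.01 ± 0.59) was followed by Pgf (1.54 ± 0.41). In GL261 Nrp1 (1.23 ± 0.52), Vegfa (1.07 ± 0.17) and Angpt2 (0.84 ± 0.18) overlapped. Flt4 had the lowest mean in all 5 groups.

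A ratio of 2 genes within a library does not depend on the scaling between libraries. The ratio of Angpt2 to Angpt1, the pair that competes for Tek, was 0.776, 1.76 and 0.229 on the TPM scale in naïve brain. It was 1.60, 1.31 and 1.98 in CT2A, 2.48, 4.05 and 5.61 in GL261, 3.70, 4.37 and 16.2 in Mut3 and 15.1, 15.3 and 2.03 in 005. GL261, 005 and Mut3 lay above all naïve libraries and CT2A overlapped them. Angpt1 itself was not called in any tumor, with log2 fold changes of 0.87 for CT2A, 0.37 for Mut3, -0.69 for GL261 and -1.32 for 005. The ratio of Vegfa to Vegfb was 0.170, 0.0649 and 0.0837 in naïve brain. It was 0.204, 0.193 and 0.231 in GL261, 0.413, 0.325 and 0.502 in CT2A, 0.842, 0.977 and 0.689 in Mut3 and 1.11, 0.547 and 0.121 in 005. Of the 12 tumor libraries, only 005 replicate 3 lay within the naïve range. Both ratios were chosen after the values were seen and are given with no test.

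**Figure D4:**
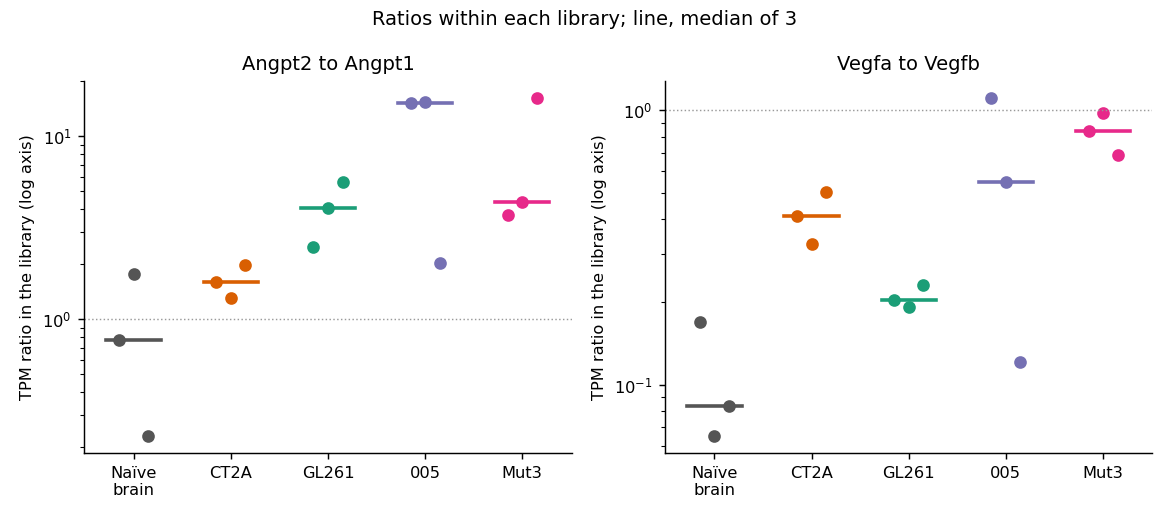
Ratio of Angpt2 to Angpt1 (left) and of Vegfa to Vegfb (right) on the TPM scale (y axis, log) in each library by group (x axis), with 3 points and a median line per group. The median Angpt2 to Angpt1 ratio is 0.776 in naïve brain and 1.60, 4.05, 15.1 and 4.37 in CT2A, GL261, 005 and Mut3.

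The receptors were set against the endothelial markers of the same library as a description. The mean log2 CPM of the 16 markers was 2.54 ± 0.36 (SD, n = 3) in naïve brain, 3.13 ± 0.45 in 005, 2.94 ± 0.14 in GL261, 2.37 ± 0.18 in CT2A and 2.34 ± 0.27 in Mut3. Kdr minus that mean was -1.04 ± 0.89 on the log2 scale in naïve brain, -1.04 ± 0.82 in GL261, -0.46 ± 0.17 in 005, -0.37 ± 0.74 in CT2A and 0.68 ± 0.39 in Mut3. The 3 Mut3 libraries (1.07, 0.69 and 0.29) lay above all naïve libraries, the highest of which was -0.45. Tek minus the mean was -0.39 ± 0.41 in naïve brain, -1.22 ± 0.94 in GL261, -1.69 ± 0.72 in CT2A, -1.78 ± 0.93 in 005 and -1.99 ± 1.72 in Mut3. For Tek the CT2A libraries (-1.69, -0.98 and -2.41) and the Mut3 libraries (-3.98, -1.03 and -0.97) lay below all naïve libraries. The lowest naïve value was -0.87, and the Mut3 library at -3.98 had 0 Tek counts. GL261 and 005 overlapped naïve brain in Tek. Flt1 minus the mean ran from 0.55 ± 0.68 in GL261 to 1.75 ± 0.29 in Mut3, with every tumor overlapping naïve brain. Nrp1 minus the mean ran from 1.74 ± 0.47 in 005 to 2.52 ± 0.45 in GL261. With the endothelial mean as a covariate across all genes, Kdr in Mut3 was 1.52 (adjusted p = 0.0510) and Angpt2 in 005 was 1.55 (adjusted p = 0.142), neither called. That covariate took all genes called against naïve brain from 2217 to 305 in 005 and from 6601 to 6497 in Mut3. The mean includes Ly6c1 and Abcb1a, and the part of endothelium in these values was not tested.

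**Figure D5:**
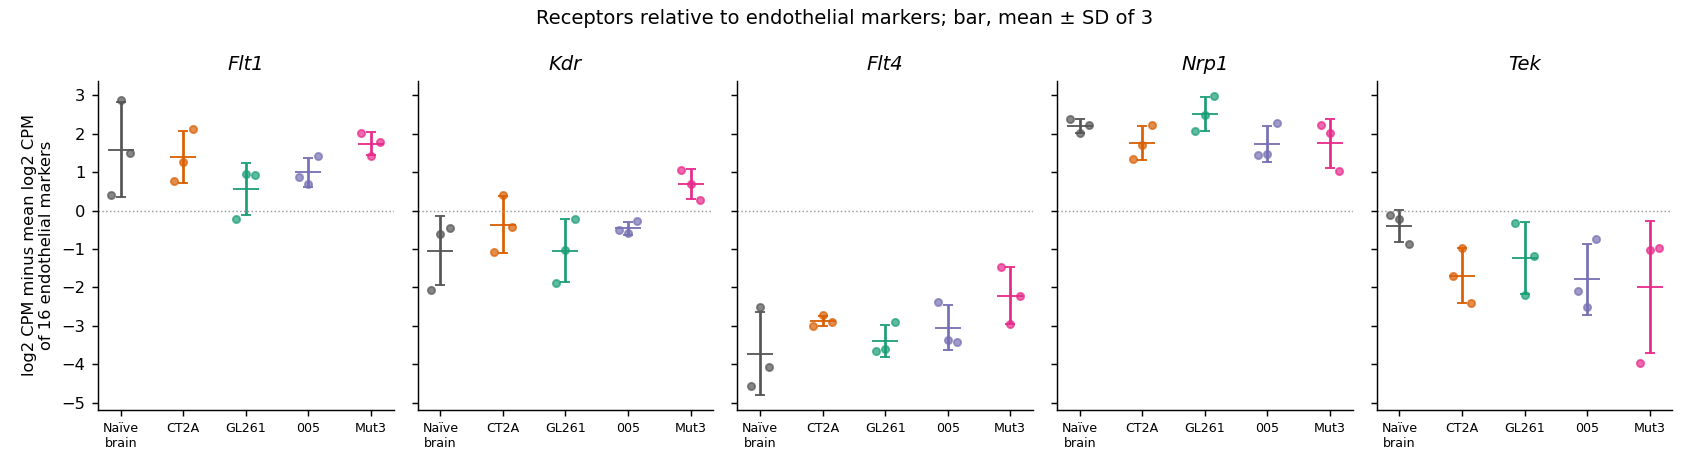
log2 CPM of each receptor minus the mean log2 CPM of 16 endothelial markers in the same library (y axis) by group (x axis), with 3 points and the mean ± SD. Kdr is highest in Mut3, at 0.68 ± 0.39, against -1.04 ± 0.89 in naïve brain.

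Of 24 other genes of these pathways, 23 were tested. In CT2A 7 rose and 2 fell, in GL261 2 rose and 3 fell, in 005 3 rose and 0 fell, and in Mut3 3 rose and 5 fell. The median log2 fold changes of 0.53, -0.33, 0.37 and 0.53 in the same order became -0.51, -1.18, -0.30 and -0.40 under the TPM scaling, where 1, 0, 1 and 1 genes were called higher and 4, 5, 0 and 5 lower. Esm1, a secreted proteoglycan that VEGF induces in endothelial tip cells, was 0.816, 0.498 and 0 CPM in naïve brain. It was 1.34, 3.57 and 8.91 CPM in CT2A, 3.52, 2.10 and 2.67 CPM in GL261, 10.2, 15.9 and 0.854 CPM in 005 and 9.40, 10.6 and 19.3 CPM in Mut3, so all 12 tumor libraries lay above naïve brain. Esm1 rose by 4.78 ± 1.07 (adjusted p = 0.00335) in Mut3, by 4.23 ± 1.07 (adjusted p = 0.0181) in 005 and by 3.27 ± 1.07 (adjusted p = 0.0245) in CT2A, and was 2.53 ± 1.08 (adjusted p = 0.0968) in GL261. Scaled as the TPM, Esm1 was called in Mut3 alone, at 3.96 (adjusted p = 0.00733). Its naïve level was close to the floor, so the size of these changes is poorly fixed.

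Vegfd, a ligand of VEGFR3, rose in CT2A by 3.07 ± 1.02 (adjusted p = 0.0270), at 9.89, 9.78 and 12.7 CPM against 2.65, 0.249 and 0.811 CPM in naïve brain. Nrp2, a coreceptor for VEGF-C, rose in CT2A by 1.17 ± 0.39 (adjusted p = 0.0281), and Ptprb, the phosphatase that dampens Tie2, fell there with a log2 fold change of -1.16 ± 0.42 (adjusted p = 0.0381). None of these 3 genes was called in GL261, 005 or Mut3, and Vegfd and Nrp2 were not called under the TPM scaling. Tie1, the partner receptor of Tie2, Apln, a vascular peptide, and Dll4, the Notch ligand of tip cells, did not pass in any tumor. The largest called change of these pathway genes was that of Sh2d2a, an adaptor that binds VEGFR2 and that T cells also express, in CT2A (3.71 ± 1.28), GL261 (3.94 ± 1.28) and 005 (5.28 ± 1.26), and that of Esm1 in Mut3. Leukocyte markers moved with Sh2d2a, since 7 of 10 myeloid markers were called higher in CT2A, 7 for GL261, 7 for 005 and 0 for Mut3, where Sh2d2a was not called. Under the TPM scaling these counts were 1, 6, 5 and 0. Myeloid markers called lower were 1 in CT2A, P2ry12 (-2.41), a receptor of microglia, and 4 in Mut3, P2ry12 (-3.61), Tmem119 (-2.20), Itgam (-1.56) and Csf1r (-1.15). Ptprc, the pan-leukocyte gene, rose by 3.50 in CT2A, 4.35 in GL261 and 5.42 in 005, and Csf1r is the receptor for colony-stimulating factor on macrophages and microglia. The part of immune cells in the Sh2d2a values was not tested. Sh2d2a was at 0, 0 and 0.541 CPM in naïve brain, below the floor of 3 counts a library. The size of its fitted change therefore depends on the default prior count of the fit and is no bound. The 5 genes that fell in Mut3, named after their values were seen, were Sema3f (-3.47), Shb (-2.40), Dusp5 (-2.10), Pdgfb (-2.06) and Unc5b (-2.02).

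Most endothelial markers were without a call, with 1 of 16 higher and 2 lower in CT2A, 3 and 1 in GL261, 2 and 0 in 005 and 1 and 2 in Mut3. Under the TPM scaling it was 0 and 6, 1 and 2, 0 and 0, and 0 and 6 in the same order. Pecam1, the adhesion molecule known as CD31, was 138, 162 and 149 CPM in naïve brain and 75.1, 75.7 and 77.2 CPM in Mut3. Its log2 fold change of -0.98 ± 0.25 (adjusted p = 0.00751) in Mut3 and of -0.86 ± 0.25 (adjusted p = 0.0148) in CT2A missed the fold threshold, which both passed under the TPM scaling, and it was 0.16 ± 0.25 in GL261 and -0.24 ± 0.25 in 005. In the other tumors Pecam1 was 83.9, 77.3 and 85.4 CPM in CT2A, 194, 142 and 164 CPM in GL261 and 84.7, 162 and 134 CPM in 005. The study text compares the tumors by CD31 staining of sections, a protein measure unlike RNA of bulk tissue. It reports more blood vessels in Mut3 and low CD31 in 005 and GL261. The cells that gave the Pecam1 RNA were not tested. Cdh5 and Cldn5, junction genes of endothelium, were not called in any tumor. The marker called higher in all 4 tumors with TMM, named after its values were seen, was Emcn, a sialomucin of veins and capillaries, at 1.77 in 005, 1.52 in Mut3, 1.37 in CT2A and 1.28 in GL261, and it was not called in any under the TPM scaling. The largest called change was that of Abcb1a, a blood-brain barrier efflux pump, in CT2A (-4.35), GL261 (-4.12) and Mut3 (-4.97), where naïve brain held 157, 10.5 and 5.14 CPM and rested on replicate 1. In 005 it was Ly6c1 (2.71), which monocytes also express.

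Mural cell markers gave 2 higher and 1 lower of 10 tested in CT2A, 0 and 1 in GL261, 2 and 0 in 005 and 2 and 1 in Mut3. Pdgfrb, the pericyte receptor, rose in CT2A by 1.98 ± 0.56 (adjusted p = 0.0129) but was 0.84 (adjusted p = 0.271) under the TPM scaling, and Rgs5 and Acta2 did not pass in any tumor with TMM. The largest called mural changes were Vtn in CT2A (-2.15) and GL261 (-1.39), Kcnj8 in 005 (2.30) and Cspg4, which glioma cells also express, in Mut3 (3.67).

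Hypoxia-inducible genes were called higher for 6 of 16 in CT2A and 6 in Mut3, against 3 in GL261 and 3 in 005, and lower for 1 in CT2A and 1 in Mut3. Their median log2 fold change was 1.12 for CT2A, 1.09 for Mut3, 0.47 for GL261 and 0.37 for 005, and under the TPM scaling 0.07, 0.23, -0.29 and -0.24. Car9, the tumor carbonic anhydrase, rose in all 4 with TMM, by 5.29 ± 0.91 (adjusted p = 8.42e-04) in Mut3, 4.13 ± 0.91 (adjusted p = 0.00665) in GL261, 3.76 ± 0.91 (adjusted p = 0.00613) in CT2A and 3.21 ± 0.92 (adjusted p = 0.0332) in 005. Naïve brain held 0.408, 0 and 0.541 CPM, below the floor of 3 counts a library. These sizes therefore depend on the default prior count of the fit and are no bounds. In 005 the Car9 call was lost under the TPM scaling, at 2.54 (adjusted p = 0.0789). Adm, a vasoactive peptide, rose in GL261 (3.07) and Mut3 (1.88), and Egln3, an oxygen sensor, in CT2A (2.39) and 005 (2.57), of which Adm in GL261 alone was also called under the TPM scaling. The largest called change in 005 was Hk2, a glycolytic enzyme, at 3.38.

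Other cells of the brain moved with these comparisons. Neuron markers were called lower for 10 of 10 in CT2A and in Mut3 and for 0 of 10 in GL261 and 005, where the list median was -2.06 and -1.76. With the TPM scaling 7 of 10 were called lower in GL261 and 0 in 005. Snap25, a synaptic vesicle fusion protein, fell in CT2A (-3.51) and Mut3 (-5.72). Astrocyte markers were called lower for 7, 0, 0 and 4 of 10 in CT2A, GL261, 005 and Mut3, and oligodendrocyte markers for 3, 0, 0 and 6 of 8. One astrocyte marker was called higher, Gfap, the intermediate filament that reactive astrocytes raise, in GL261 (2.56) and in Mut3 (2.57), and neither call held under the TPM scaling. Aqp4, the astrocyte water channel, fell in Mut3 (-3.34), and Mbp, a myelin protein, fell in CT2A (-2.50) and Mut3 (-2.42). The part of these cells in the members' changes was not tested.

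Tumors were then compared with each other, in the same fit, to ask where the lines differ in these genes. Between CT2A and GL261 1 member of 9 was called, beside 7.77% of all genes. Nrp1 was lower in CT2A, with a log2 fold change of -1.34 ± 0.36 (adjusted p = 0.0353), and the call was lost without CT2A replicate 1 (-1.23, adjusted p = 0.0998), replicate 2 (-1.27, adjusted p = 0.119) or replicate 3 (-1.55, adjusted p = 0.0644) and without GL261 replicate 2 (-1.42, adjusted p = 0.0686) or replicate 3 (-1.05, adjusted p = 0.160). Under the TPM scaling it was -1.57 ± 0.48 (adjusted p = 0.0754), not called. Between CT2A and Mut3 1 member was called, beside 12.8% of genes. Angpt2 was lower in CT2A, at -1.50 ± 0.45 (adjusted p = 0.0385). That call was lost without CT2A replicate 1 (-1.42, adjusted p = 0.112), replicate 2 (-1.40, adjusted p = 0.136) or replicate 3 (-1.58, adjusted p = 0.0926) and without Mut3 replicate 2 (-1.42, adjusted p = 0.101) or replicate 3 (-1.03, adjusted p = 0.198). Between 005 and Mut3 1 member was called, beside 19.8% of genes. Angpt2 was lower in 005, at -1.55 ± 0.44 (adjusted p = 0.0250), a call lost without 005 replicate 1 (-1.54, adjusted p = 0.0572) or replicate 3 (-1.29, adjusted p = 0.0590) and without Mut3 replicate 2 (-1.47, adjusted p = 0.0666) or replicate 3 (-1.09, adjusted p = 0.143). Over all alternatives, adjusted p ran from 0.00648 to 0.203 for Nrp1, from 0.0137 to 0.198 for Angpt2 between CT2A and Mut3 and from 0.00556 to 0.143 for Angpt2 between 005 and Mut3.

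GL261 and Mut3 were the pair of tumors with the most members called, 3 of 9, beside 17.2% of genes. Vegfa was lower in GL261, at -1.73 ± 0.42 (adjusted p = 0.0137), as was Angpt2, at -1.86 ± 0.45 (adjusted p = 0.0138), while Nrp1 was higher by 1.33 ± 0.36 (adjusted p = 0.0224). For each of the 3 genes the libraries of the 2 tumors did not overlap. The genes were picked by their calls in this comparison, so this adds no further evidence. The share of all genes without overlap was not counted. Single libraries ended each call. Without GL261 replicate 1, Vegfa was -1.65 (adjusted p = 0.0506) and Angpt2 -1.70 (adjusted p = 0.0578). Without GL261 replicate 2, Vegfa was -1.68 (adjusted p = 0.0530), and without GL261 replicate 3, Nrp1 was 1.02 (adjusted p = 0.105). Without Mut3 replicate 1, Vegfa was -1.39 (adjusted p = 0.0791), and without Mut3 replicate 3, Angpt2 was -1.36 (adjusted p = 0.0793) and Nrp1 1.20 (adjusted p = 0.0518). Over all alternatives, adjusted p ran from 0.00104 to 0.0966 for Vegfa, from 8.74e-04 to 0.0793 for Angpt2 and from 0.00303 to 0.160 for Nrp1.

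Between CT2A and 005, 0 members were called by edgeR, beside 4.11% of genes. At an unadjusted p under 0.05, 2 were higher and 1 lower in CT2A with edgeR, and 2 were called by DESeq2 and 0 by limma. DESeq2 called 1777 of 17481 genes in this comparison. Of 13471 genes, limma called 474 with a pseudocount of 1 and 529 with 0.1. Between GL261 and 005, 0 were called by edgeR, DESeq2 and limma, beside 2.62% of genes in edgeR. There, 1 member passed at an unadjusted p under 0.05 in each tool.

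Mut3 against the mean of the other tumors gave 2 members called of 9, beside 20.4% of genes. This contrast was chosen because the study text sets Mut3 apart for its vessel staining. Vegfa was higher by 1.06 ± 0.32 (adjusted p = 0.0271) and Angpt2 by 1.64 ± 0.33 (adjusted p = 0.00384). Each of 7 single libraries decided the Vegfa call. The value was 0.98 (adjusted p = 0.0461) without CT2A replicate 1, 0.94 (adjusted p = 0.0716) without CT2A replicate 2, 0.97 (adjusted p = 0.0616) without GL261 replicate 1 and 0.99 (adjusted p = 0.0122) without 005 replicate 3. It was 0.72 (adjusted p = 0.230) without Mut3 replicate 1, 1.13 (adjusted p = 0.0608) without Mut3 replicate 2 and 1.09 (adjusted p = 0.0727) without Mut3 replicate 3. Angpt2 lost its call without Mut3 replicate 3, at 1.16 (adjusted p = 0.0598), and kept it without each of the other 11 tumor libraries. Over all alternatives, adjusted p ran from 0.00878 to 0.230 for Vegfa and from 2.18e-04 to 0.0598 for Angpt2.

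GL261 and 005 against CT2A and Mut3, the pairs of lines that the study text contrasts, gave 1 called member of 9 beside 16.9% of genes. Nrp1 was higher in GL261 and 005 by 1.05 ± 0.25 (adjusted p = 0.0120), a value close to the fold threshold. It fell under that threshold without CT2A replicate 1 (0.99, adjusted p = 0.0249), GL261 replicate 3 (0.89, adjusted p = 0.0403), 005 replicate 2 (0.99, adjusted p = 0.0206), 005 replicate 3 (0.93, adjusted p = 0.0243) or Mut3 replicate 3 (0.97, adjusted p = 0.0206). Vegfa (-0.96 ± 0.29, adjusted p = 0.0311) and Angpt2 (-0.95 ± 0.31, adjusted p = 0.0430) were past the p threshold and not the fold threshold. With 2 lines on each side, the contrast concerns these 4 lines.

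Over the 5 groups together, a test of any difference, with no fold threshold, called 5 of 9 members, beside 52.1% of all genes. They were Angpt2 (adjusted p = 5.83e-04), Vegfa (adjusted p = 0.00556), Pgf (adjusted p = 0.0158), Nrp1 (adjusted p = 0.0221) and Vegfc (adjusted p = 0.0312). Vegfb (adjusted p = 0.158), Kdr (adjusted p = 0.121), Tek (adjusted p = 0.456) and Flt1 (adjusted p = 0.482) did not pass.

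Genes with a pattern most like each member were ranked by Pearson's r of log2 CPM over the 15 libraries, which share 5 groups, among 8936 or 8937 genes. Angpt2 was followed most closely by Fam234a (0.956), Mki67 (0.931), the proliferation antigen, and Myc (0.924), a growth regulator. Vegfa was followed by Ruvbl2 (0.947), Psmg1 (0.939) and Hnrnpm (0.931), and Kdr by Zic5 (0.910), Tbc1d4 (0.902) and Ankrd13a (0.873). For Pgf they were 2010111I01Rik (0.923), Col3a1 (0.871), a fibrillar collagen, and Amz2 (0.868). Nrp1 was followed by Fbh1 (0.843), Bsg (0.843) and Arl1 (0.824), Vegfb by Mypop (0.855), Ap3s2 (0.829) and Fkbp8 (0.828), and Flt1 by Wdfy3 (0.824), Akt2 (0.815) and Fam168b (0.793). For Vegfc and Tek the first were Gm16277 (0.817) and Mdk (0.786).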

How the data were processed

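Whole-transcriptome RNA-seq of 3 naïve brains and 3 tumors each of CT2A, GL261, 005 and Mut3 was analysed, grouped by the sample labels. The authors aligned reads with STAR 2.4.2a to the GENCODE mouse genome and used Picard and RNA-SeQC. The submitters' processing notes also name Salmon, DESeq2 1.18.1 and mm10 without their roles. The annotation release is not given in the sources used here. The authors deposited expected counts, not normalized between samples, and TPM values, which are scaled per gene length and to 1000000 per sample. Total counts were 3.105 M to 13.13 M per sample (M, 1000000 counts), which limits genes low in naïve brain.

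Symbols and positions came from GENCODE M21 (GRCm38), where 46201 of 46679 genes matched. Expected counts were rounded, filtered with filterByExpr and normalized by TMM. They were tested with the quasi-likelihood test of edgeR 4.0.16 (R 4.3.3) in 1 fit of all 15 samples, with a mean per group and no covariate, because the study text states no test. Genes called had a Benjamini-Hochberg adjusted p under 0.05 over 17481 genes and a log2 fold change of 1 or more in size. The SE was the log2 fold change divided by the square root of F. Log2 CPM used a prior count of 2, which did not enter the fitted fold changes, where the default of edgeR was kept. On simulated counts for Mut3 against naïve brain (16989 genes, 200 changed), 25% of changed genes and 40.8% of those changed at least 4-fold were called, and 1 of 51 calls was unchanged. In the data 6601 of 17481 genes were called in that comparison. The simulation held far fewer changed genes, so its rates do not carry over to the data.

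The members, the marker lists and the tests were chosen with earlier results of these data known. Named genes were all members, anchors fixed for each list and the called gene with the largest change of a list in a comparison. Neighbours were the 3 genes with the highest r among genes with a mean log2 CPM of at least 3. Promoters came from RefSeq (GRCm38.p6). Alternatives were DESeq2 1.42.0, library size in place of TMM, other filters, only the samples compared, no fold threshold, limma 3.58.1 on log2(TPM + 1) and log2(TPM + 0.1) of genes with a TPM of at least 1 in 3 samples, the endothelial score as a covariate, the replicate block, counts scaled as the TPM, and each library left out. Vessel staining was not analysed here, and part of the genotype of the lines is not reported here.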

Additional observations from a re-analysis of the deposited data

Results flagged for a closer look

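The effect against naïve brain differed between tumors for 3 members, by a direct test of 1 tumor against another with edgeR over all genes. Because naïve brain is shared, each value is the difference between the 2 tumors themselves.

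Nrp1 differed between CT2A and GL261 by -1.34 on the log2 scale and between GL261 and Mut3 by 1.33, with GL261 the higher in both. Angpt2 was lower than in Mut3 in each other tumor, by -1.50 in CT2A, -1.86 in GL261 and -1.55 in 005. Vegfa differed between GL261 and Mut3 by -1.73. Leaving out single libraries ended these calls in 5 of 6 fits for Nrp1 between CT2A and GL261, 2 of 6 for Nrp1 between GL261 and Mut3, 5, 2 and 4 of 6 for Angpt2 in the same order and 3 of 6 for Vegfa. Groups of 3 were not tested for single outlying libraries.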

How the results depend on the processing

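Of 723 values of single members recomputed under an alternative, 615 stayed on the same side of the thresholds, 81 were no longer called and 27 were newly called. The sign changed in 24 of the 723, of which 0 were called in either fit. The counts of members called were less stable. Counts are out of 9 tested members unless a setting tests fewer, and the cause of a change was not tested except where fewer genes or samples were tested.

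DESeq2 called 2 members in 005 against naïve brain (1 in edgeR), 2 between CT2A and GL261 (1), 2 between CT2A and 005 (0), 3 between CT2A and Mut3 (1) and 3 in GL261 and 005 against CT2A and Mut3 (1). In the same order DESeq2 called 3375, 2163, 1777, 3205 and 3547 of all genes, against 2217, 1358, 719, 2231 and 2959 in edgeR. A filter of at least 10 counts in every sample, which tests fewer genes, left 1 in CT2A (3), 0 in GL261 (1) and 0 in 005 (1) against naïve brain, 0 between CT2A and Mut3 and 0 between 005 and Mut3 (1 each), 1 in Mut3 against the mean of the other tumors (2) and 2 for any difference (5). Of 9435 genes tested, that filter called 3956, 2517 and 1206 in CT2A, GL261 and 005 against naïve brain. It called 1294 between CT2A and Mut3, 1742 between 005 and Mut3 and 1598 in Mut3 against the mean of the other tumors. Fits of only the samples compared gave 0 in 005 against naïve brain, 0 between 005 and Mut3, 3 between CT2A and GL261 and 3 between CT2A and Mut3. In the same order these fits called 222, 925, 2353 and 3060 of all genes, against 2217, 3463, 1358 and 2231 in the main fit. With no threshold on the fold change, GL261 and 005 against CT2A and Mut3 gave 3.

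With limma on log2(TPM + 1), CT2A against naïve brain gave 1, and the count was 0 between CT2A and GL261, CT2A and Mut3, 005 and Mut3, in Mut3 against the mean of the others and in GL261 and 005 against CT2A and Mut3. Of 13471 genes tested, this fit called 5556 in CT2A against naïve brain and 1113 in Mut3 against the mean of the others. It called 751 between CT2A and GL261, 1151 between CT2A and Mut3 and 1072 between 005 and Mut3. With limma on log2(TPM + 0.1) the count was 2 in 005 against naïve brain and 0 between CT2A and GL261, CT2A and Mut3 and 005 and Mut3. In the same order 3427, 859, 1412 and 1465 genes were called. With counts scaled as the TPM the count was 6 in CT2A, 3 in GL261 and 0 in 005 against naïve brain and 0 between CT2A and GL261. In the same order 8302, 6198, 979 and 944 genes were called, against 6858, 3913, 2217 and 1358 under TMM. With the endothelial score as a covariate the count was 0 in 005 against naïve brain, 0 between CT2A and GL261, 1 between GL261 and Mut3 (3), 1 in Mut3 against the mean of the others, 0 in GL261 and 005 against CT2A and Mut3 and 3 for any difference. Over all genes, that covariate left 305 calls in 005 against naïve brain (2217 without it) and 491 between CT2A and GL261 (1358). It left 1086 between GL261 and Mut3 (3015) and 1759 in Mut3 against the mean of the others (3563).

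Replicate numbers did not pair the samples. Over 30 pairs of samples with the same number in different groups, deviations from the group mean correlated at -0.331 to 0.262 (median -0.0199), 1 over 0.1, and 3 of 15 samples correlated best with their own number. With the replicate block the count was 0 between CT2A and GL261 (Nrp1 at -1.34, adjusted p = 0.0621), 0 between CT2A and Mut3 (Angpt2 at -1.48, adjusted p = 0.0666) and 2 in GL261 and 005 against CT2A and Mut3. Over all genes the block left 1066 calls between CT2A and GL261 (1358 without it) and 1822 between CT2A and Mut3 (2231).

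Leaving out each replicate gave 2 to 4 in CT2A, 1 to 2 in GL261, 1 to 3 in 005 and 2 to 4 in Mut3 against naïve brain. Over all genes these fits called 4683 to 7502 in CT2A, 1988 to 5535 in GL261 and 5489 to 7221 in Mut3. The 3 in 005 came without 005 replicate 3, where 6535 of 18300 genes were called, against 1006 to 2220 without any other library. Between tumors it gave 0 to 3 for CT2A and GL261, 0 to 1 for CT2A and Mut3, 0 to 1 for GL261 and 005, 1 to 3 for GL261 and Mut3 and 0 to 1 for 005 and Mut3. In the same order, 599 to 2216, 1346 to 3222, 192 to 1073, 1433 to 4125 and 1762 to 3507 of all genes were called. Members called were 0 to 2 in Mut3 against the mean of the others, beside 1810 to 4062 genes. They were 0 to 3 in GL261 and 005 against CT2A and Mut3 and 3 to 6 for any difference. Where this left 2 samples in a group, the spread was shared with the other groups.

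Library depth was lowest in naïve brain, where Pgf, Vegfc, Flt4, Esm1, Sh2d2a and Car9 were at or near the floor, so fold changes of these genes are loosely bounded.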
